A study of Mus musculus with 4 samples.

Results

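Cytosolic ribosomal protein genes were followed on arrays of mouse adrenal gland, from wild-type mice and mice without the V1a vasopressin receptor. They were taken by symbol from the platform annotation: Rpl or Rps followed by a digit, and the stalk genes with the symbols Rplp0, Rplp1 or Rplp2. Symbols that start with Rps6k (kinases) and pseudogene symbols with the ending -ps and a number were left out, which removed 11 and 1 probe sets. Only probe sets annotated to a single gene were used. This gave 104 probe sets of 49 genes, out of 45037 probe sets and 18193 such genes on the array. Of the 49 genes, 20 encode proteins of the small subunit, 20 of the large subunit and 2 of the stalk (Rplp0 and Rplp2), and 7 are paralogs or binding partners (Rpl3l, Rpl7l1, Rpl22l1, Rpl39l, Rps4l, Rps27l and Rps19bp1). A further 110 probe sets carry a ribosomal protein symbol together with other genes, mostly predicted genes and pseudogenes. No gene was named from them, and 31 ribosomal protein symbols occur on the array only there.

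The study hybridised adrenal RNA of male mice at 2 months of age to Affymetrix Mouse Genome 430 2.0 arrays. There were 2 wild-type (WT) arrays and 2 V1a knockout (KO) arrays, with 1 sample per array. The labels used here give neither strain nor allele design, and do not tie the samples to individual animals. So each p-value reflects how far these 4 samples scatter, and that scatter could be technical. All values are log2 expression units made by the authors with GCRMA, and all differences are knockout minus wild type.

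The cytosolic ribosome is built from ribosomal RNA and a fixed set of proteins in a small subunit, which decodes the mRNA, and a large subunit, which joins amino acids. The stalk of the large subunit recruits translation factors. In mammals many ribosomal protein mRNAs begin with a run of pyrimidines, the 5′ terminal oligopyrimidine (TOP) tract, through which mTOR signalling controls their translation. Their genes have left large numbers of processed pseudogenes, so short array probes often match more than 1 sequence.

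RefSeq promoter sequences (GRCm38.p6) were at hand for 43 of the 49 genes, with 51 start sites. Runs of at least 7 letters, all C or T and beginning with C, were sought on the strand that reads like the mRNA. Such a run, reaching within 15 bases of the start, was found at 25 of 51 member starts (49.0%). Among all 32851 RefSeq promoters, 20.0% held one. The sequences below are examples from member genes, and all but that of Rpl22 hold such a run. Rpl12 and Rpl41 are not shown and had no run that met the rule. Each is 15 bases before and 15 after the annotated start, 5′ to 3′, with the pyrimidine run in capitals where it met the rule.
Rps6 (chr4:86857353-86857382, minus strand): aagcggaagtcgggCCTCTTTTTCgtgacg
Rps9 (chr7:3704026-3704055, plus strand): accgccttgtCTCTCTTTgtctcgggcctg
Rps24 (chr14:24490663-24490692, plus strand): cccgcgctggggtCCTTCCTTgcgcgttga
Rpl13a (chr7:45128731-45128760, minus strand): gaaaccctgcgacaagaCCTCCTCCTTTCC
Rpl35 (chr2:39005117-39005146, minus strand): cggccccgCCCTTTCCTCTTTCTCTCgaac
Rplp2 (chr7:141447636-141447665, plus strand): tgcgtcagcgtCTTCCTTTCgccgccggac
Rps27 (chr3:90213634-90213663, minus strand): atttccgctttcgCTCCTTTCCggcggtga
Rpl22 (chr4:152324421-152324450, plus strand): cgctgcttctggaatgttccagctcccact

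Rps24 and Rpl22 have more than 1 start in the table, and the upstream one is shown. Rpl22 is shown as a member without a run that met the rule in this window. In the whole promoter, from 250 bases before the start to 50 after, the letters CGGAAGT, the core of sites for ETS factors, occurred on either strand at 13 of 51 member starts (25.5%) and in 6.42% of all promoters. The letters AAGATGG, which overlap the core recognised by YY1, occurred at 8 of 51 (15.7%) and in 6.34%. The letters TATAAA were sought from 40 to 16 bases before the start, on the strand that reads like the mRNA. They occurred at 1 of 51 member starts (1.96%) and in 1.99% of all promoters. These are matches of letters and do not show that a factor binds.

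The ribosomal protein probe sets fell into bright and dim ones, largely along the suffix of their name. A plain name ends in _at alone. The manufacturer uses _a_at for probes shared by transcripts of a gene, _s_at for probes shared by transcripts of several genes, and _x_at where some probes match other sequences closely. Here 33 member probe sets were plain and 71 had such an extended suffix (28 _a_at, 3 _s_at and 40 _x_at). Testing required 4 log2 units or more on 2 or more arrays. Of the 104 probe sets 88 met this, from 46 of the 49 genes. Of the plain ones 20 were tested and 13 were too dim. Of the extended ones 68 were tested and 3 were too dim. All 88 reached 4 units on at least 1 array of each genotype, so none was tested through a single genotype.

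The median level of the 20 plain probe sets was 7.27 log2 units and that of the 68 extended ones 13.26, beside 6.73 for all tested plain and 7.80 for all tested extended probe sets. Of all 88 tested members 61 (69.3%) had a mean of at least 12 units, against 447 of 17228 tested probe sets (2.59%). Levels of different probe sets depend on their probes and are set side by side only as a description. In each of the 11 genes with probe sets of both kinds, the brightest plain one read below the brightest extended one, with a median plain minus extended level of -9.24 units. The level difference was small in Rpl27 (-0.038), Rps15 (-1.02) and Rpl22 (-1.23). It was largest in Rpl35, whose plain probe set read 2.32 to 2.34 while its brightest extended one averaged 14.03. The plain probe sets of Rplp0, Rpl19, Rps15, Rpl27 and Rpl22 were the 5 with means above 10.

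**Figure D1:**
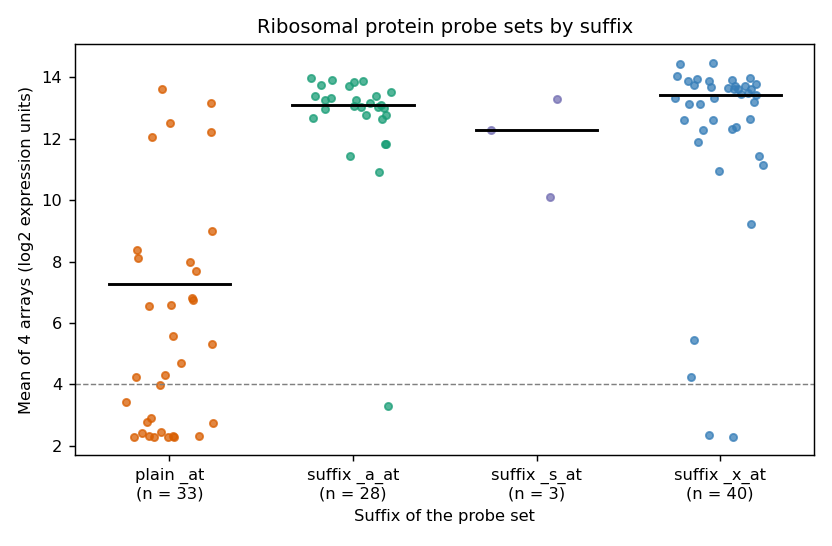
Mean log2 expression over the 4 arrays (vertical axis) of the 104 ribosomal protein probe sets, by suffix (horizontal axis). Each point is a probe set, the bar is the median of the tested ones, and the dashed line marks 4 log2 units. The plain probe sets spread from the floor to above 13, and most _a_at and _x_at ones lie above 12.

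The 16 untested probe sets read 2.30 to 3.80 on every array, and 8 of them had the same value on all 4. Rpl3l, the paralog of Rpl3 used in muscle, read 2.73 on each array. Rpl39l, a paralog of Rpl39 found mainly in testis, read 2.30 to 2.31. Rps16, a small-subunit protein, had a single such probe set, at 2.30 on each array. These 3 genes were left without a test.

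The arrays of the 2 genotypes were not equally alike. Liver transcripts were read on wild-type array 1: Alb (albumin) was 8.86 there, and between 2.42 and 2.43 elsewhere. Of 7 liver markers, all 7 were highest on that array, with a median of 6.89 there and 2.48 to 2.51 elsewhere. The log2 values of all their probe sets summed to 86.6 there, 33.1 on the other wild-type array, and 33.9 and 34.0 in the knockout. The 3′ minus 5′ difference of the Gapdh control, a measure of RNA quality, was 0.80 and 0.60 on the wild-type pair, and 0.39 and 0.63 on the knockout pair. That of the beta-actin control was 2.12, 2.46, 2.19 and 2.63. Lymphocyte markers were near the floor except Ptprc, and their median was 2.32 to 2.36. Kidney markers had a median of 2.44 to 2.49, and Fxyd2 was 5.93 on wild-type array 1 against 4.04 to 4.10 elsewhere. Fat markers had medians of 9.82 and 8.04 on the wild-type pair, and 6.80 and 9.09 on the knockout pair. Adrenal cortex markers (median 13.5 to 13.8) and chromaffin markers (11.4 to 12.6) were high on all 4 arrays, as the tissue label has it. Avpr1a itself read 2.31 to 2.60 on all arrays, near the floor, and cannot check the genotype labels.

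Among ribosomal protein probe sets the 2 knockout arrays were nearly identical and wild-type array 1 stood apart. The median absolute difference over the 88 probe sets was 0.05 between the knockout arrays and 0.37 between the wild-type arrays. Over all 17228 tested probe sets these values were 0.15 and 0.44. Wild-type array 2 differed from the knockout arrays by 0.12 in each case, while wild-type array 1 differed from them by 0.38 and 0.36. Wild-type array 1 was the highest array on 47 probe sets and the lowest on 26, so it lay outside the other 3 on 73 of 88 (83.0%), against 73.9% of all tested probe sets. The liver markers moved with the same array, and their part in these values was not tested.

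**Figure D2:**
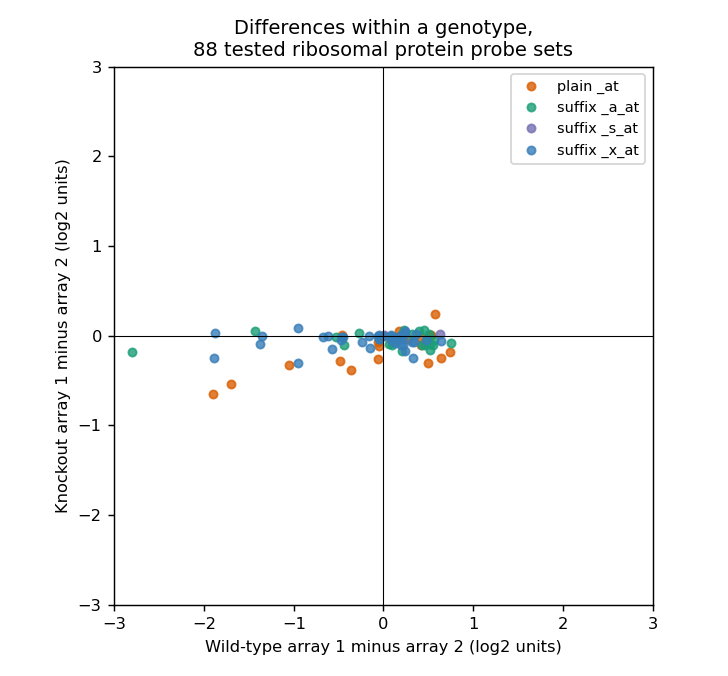
Difference between the wild-type arrays (horizontal axis) against the difference between the knockout arrays (vertical axis), in log2 units on equal scales, for the 88 tested ribosomal protein probe sets, coloured by suffix. Points spread to -2.80 along the wild-type axis, in Rpl22l1, and stay within 0.65 of zero along the knockout axis.

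The direction of the departure of wild-type array 1 differed by suffix. On the 27 tested _a_at probe sets it was highest in 22 and lowest in 5, and the median difference from wild-type array 2 was 0.20. On the 38 tested _x_at probe sets it was highest in 16 and lowest in 15, with a median difference of -0.03. Over all tested probe sets of those suffixes the medians were 0.22 and -0.02, so this difference by suffix was not particular to the members. Wild-type array 1 was highest in 1408 and lowest in 711 of all 2777 tested _a_at probe sets. Among all 1307 tested _x_at ones these counts were 487 and 523.

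Knockout against wild type, the ribosomal protein genes showed small differences in both directions. Of the 88 probe sets 33 read higher in the knockout, 54 lower and 1 the same, and the median difference was -0.09, beside -0.04 over all tested probe sets. In whole glands, fewer cells of a type and less RNA per cell cannot be told apart. The middle of the distribution, from the lower to the upper quartile, ran from -0.23 to 0.21. In limma, 0 of 88 passed an adjusted p of 0.05, as did 0% of all tested probe sets. The smallest adjusted p of a member was 0.794. At an unadjusted p under 0.05 in limma there were 4, or 4.55%, where 5.14% of all tested probe sets met this mark. Of the 4, 3 were higher (background 2.13%) and 1 was lower (background 3.01%). That share is near the background and is no result about these genes. The count was 41 without wild-type array 2 (46.6% of members and 37.8% of all tested probe sets) and 6 without wild-type array 1 (6.82% and 11.97%). It was 0 without either knockout array, where 0.981% and 1.19% of all tested probe sets met the mark. On simulated arrays with this spread limma's adjusted threshold called 0% of changes of 1 log2 unit and 9% of changes of 2.

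Groups were separate in 42 of 88 probe sets (47.7%), against 37.4% of all tested ones. Both knockout arrays were above both wild-type arrays in 16 (18.2%, against 17.4%) and below both in 26 (29.5%, against 20%). The excess over the background was on the lower side, and no test was made of it. Of the 88 differences 30 (34.1%) were at least 0.3 in size, against 42.0% of all tested probe sets. Of the 30, 11 (36.7%) were also at least 0.3 with the same sign against wild-type array 2 alone, beside 42.4% over all tested probe sets. In 25 of the 88 (28.4%) the sign turned when wild-type array 1 was left out, against 29.8% of all tested probe sets. The median without it was -0.05, beside 0.04 over all tested probe sets.

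Small-subunit probe sets had a median of -0.08 over 39 and large-subunit ones -0.11 over 38. Without wild-type array 1 these medians were -0.059 and -0.006, so their order turned. The stalk was measured by Rplp0 and Rplp2. Rplp0, the stalk base and a common reference gene, read 13.64 and 13.71 on the wild-type pair, and 13.44 and 13.70 on the knockout pair. Its difference was -0.10 (SE 0.18, n = 2 per group) and the groups overlapped. Rplp2, an acidic stalk protein, read 13.94 and 13.83 on the wild-type pair, and 13.86 and 13.91 on the knockout pair, a difference of 0.01 (SE 0.16). Neither stalk gene differed beyond the spread of its arrays. The 94 tested probe sets shared with other genes had a median of -0.12, with 35 higher and 59 lower. Their median was -0.019 without wild-type array 1.

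**Figure D3:**
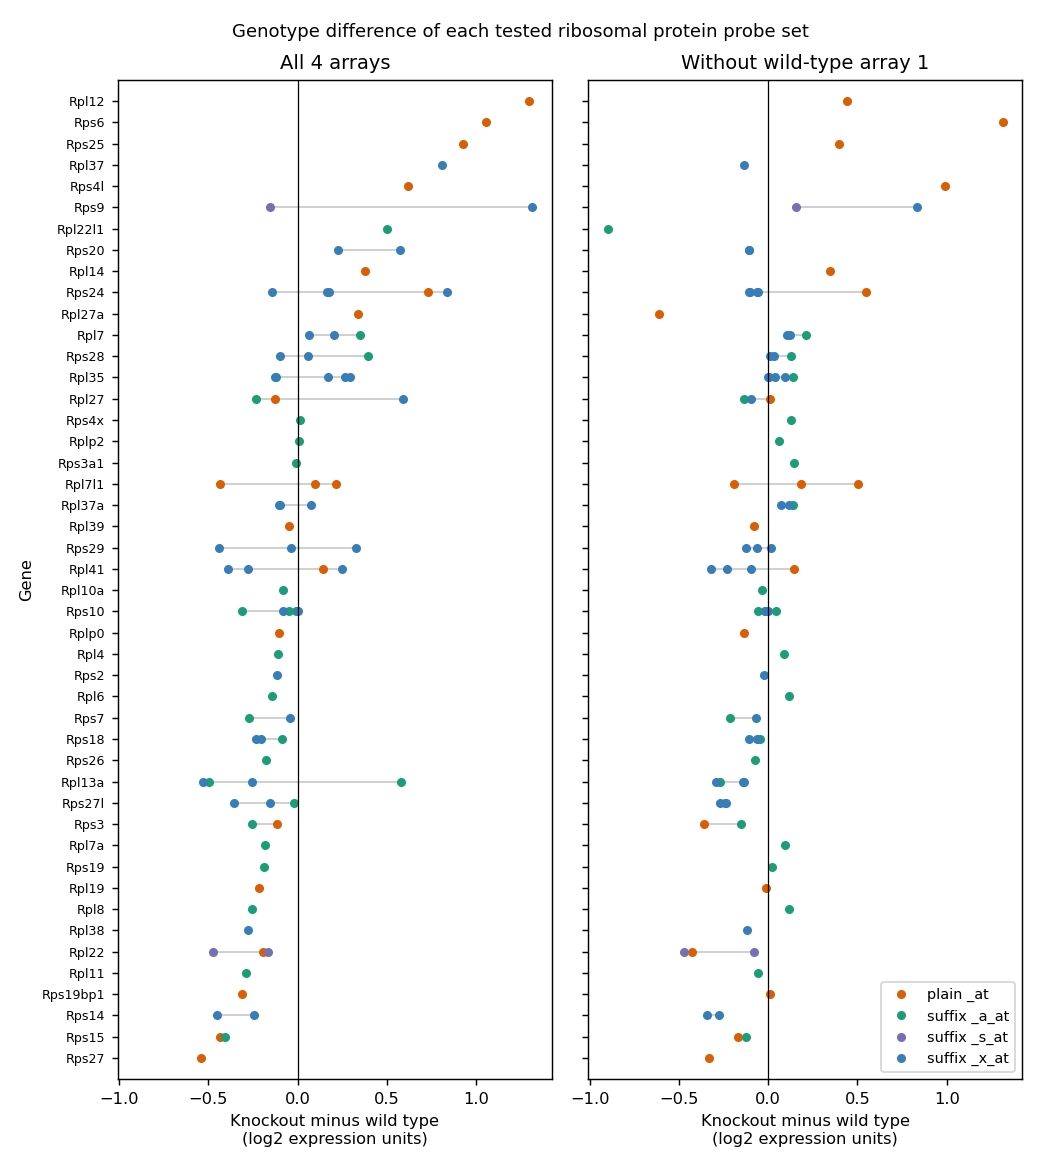
Knockout minus wild type in log2 expression units (horizontal axis) for each tested probe set of 46 ribosomal protein genes (vertical axis), on all 4 arrays at left and against wild-type array 2 alone at right. Points are probe sets coloured by suffix, and a grey line joins those of a gene. At left they run from -0.54 (Rps27) to 1.31 (Rps9), and at right from -0.90 (Rpl22l1) to 1.31 (Rps6). Rpl22l1 (extended) and Rpl27a (plain, 0.34 to -0.61) cross zero between the panels, and the plain ones of Rps6, Rps4l, Rps24 and Rpl14 stay to the right of it.

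In the small subunit, Rps6 had the smallest p of all members. Rps6 is the protein phosphorylated by the S6 kinases below mTOR. Its probe set 1416142_at read 8.12 and 7.61 on the wild-type pair, and 8.92 and 8.92 on the knockout pair. Both knockout arrays were above both wild-type arrays. The difference was 1.06 (SE 0.24, n = 2 per group), a 2.08-fold higher value, with a limma unadjusted p of 0.0141 and an adjusted p of 0.794. Against wild-type array 2 alone it was 1.31. Its other probe set, 1453466_at, was at 2.31 to 2.38 and untested, so a single probe set carries this reading.

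Rps9, a small-subunit protein near the path of the mRNA, was read by an _x_at and an _s_at probe set that went apart. The first, 1434624_x_at, read 11.26 and 12.21 on the wild-type pair, and 13.09 and 13.00 on the knockout pair, a difference of 1.31 (SE 0.38, limma unadjusted p = 0.0299, adjusted p = 0.794). The second, 1433689_s_at, read 12.68 and 12.05 on the wild-type pair, and 12.22 and 12.20 on the knockout pair, a difference of -0.16 (SE 0.28). The groups were separate on the first and overlapped on the second. Against wild-type array 2 alone the differences were 0.83 and 0.16.

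Rps24, which takes part in processing of the small-subunit RNA, had 5 tested probe sets. The plain one, 1455195_at, read 4.75 and 5.12 on the wild-type pair, and 5.48 and 5.86 on the knockout pair, a difference of 0.73 (SE 0.25, limma unadjusted p = 0.0449, adjusted p = 0.794). It lay just above the level needed for testing. The 4 _x_at probe sets, at means of 13.21 to 13.78, differed by -0.14, 0.16, 0.18 and 0.84. The last of these, 1456628_x_at, read 11.85 on wild-type array 1 while the rest lay between 13.61 and 13.73. Without that array the 4 differences ran from -0.11 to -0.06.

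Rps25, used by some viral and cellular internal ribosome entry sites, read 3.33 and 4.38 on the wild-type pair, and 4.62 and 4.94 on the knockout pair on its plain probe set. The groups were separate and the difference was 0.93 (SE 0.43), or 0.40 without wild-type array 1. That array was below the 4 units needed for testing, and the others lay just above. Rps28 gave 0.39 (SE 0.25) on its _a_at probe set, and -0.10 and 0.06 on its _x_at probe sets. Only the first of these was more than 0.3 in size, and without wild-type array 1 the 3 differences were 0.01 to 0.13.

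Several small-subunit genes read lower on both knockout arrays. Rps14, a protein of the decoding platform, read 14.06 and 13.84 on the wild-type pair, and 13.44 and 13.55 on the knockout pair on 1436586_x_at, a difference of -0.45 (SE 0.18). Its other probe set read 13.84 and 13.89, then 13.62 and 13.62, a difference of -0.25 (SE 0.16). Both probe sets kept the groups apart and stayed at -0.34 and -0.28 without wild-type array 1. Rps15 differed by -0.43 (SE 0.25) on its plain probe set and by -0.41 (SE 0.26) on its _a_at one, the closest pair of the 2 kinds. Both shrank without wild-type array 1, to -0.17 and -0.13.

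Rps27 read 5.17 and 4.75 on the wild-type pair, and 4.36 and 4.47 on the knockout pair, a difference of -0.54 (SE 0.22), or -0.33 without wild-type array 1. Rps7 read 13.27 and 13.15 on the wild-type pair, and 12.93 and 12.95 on the knockout pair on 1419364_a_at, a difference of -0.27 (SE 0.16). Its _x_at probe set gave -0.04 and overlapped. Rps29 had 3 _x_at probe sets at -0.44, -0.04 and 0.33. The first was highest on wild-type array 1 (14.16) and the third lowest there (13.97 against 14.59 to 14.61 elsewhere), and without it the 3 differences were -0.12, -0.06 and 0.02.

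Of the genes described whatever their p, Rps19, mutated in Diamond-Blackfan anaemia, read 13.10 and 12.67 on the wild-type pair, and 12.64 and 12.75 on the knockout pair, a difference of -0.19 (SE 0.22), or 0.02 without wild-type array 1. Rps18, a common reference gene, gave -0.09, -0.20 and -0.23 on its 3 tested probe sets. Rps3, which lines the mRNA entry, differed by -0.25 (SE 0.17) on its _a_at probe set and by -0.11 (SE 0.26) on its plain one. The groups overlapped in Rps19 and in the plain probe set of Rps3. Rps10 was not among those genes and had 5 tested probe sets. Its probe set 1439374_x_at was 12.64 on all 4 arrays to every deposited digit, as 50 of all tested probe sets were constant. Another of its probe sets, 1416719_a_at, read 13.20 and 12.69 on the wild-type pair, and 12.64 and 12.63 on the knockout pair, a difference of -0.31 (SE 0.24) with separate groups, or -0.06 without wild-type array 1. The remaining ones differed by -0.08, -0.05 and -0.01, with overlapping groups.

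In the large subunit, Rpl22 gave the only unadjusted p under 0.05. Rpl22 is an RNA-binding protein that translation can spare, and its paralog Rpl22l1 can take its place. Probe set 1453118_s_at of Rpl22 read 13.54 and 13.53 on the wild-type pair, and 13.06 and 13.06 on the knockout pair. The 2 arrays of each genotype were almost equal, and the difference was -0.47 (SE 0.15, limma unadjusted p = 0.0406, adjusted p = 0.794). The second _s_at probe set differed by -0.17 (SE 0.17) and the plain one by -0.20 (SE 0.23). The plain one read 11.94 and 12.40 on the wild-type pair, and 11.98 and 11.97 on the knockout pair, so its groups overlapped. All 3 differences of Rpl22 were negative, and against wild-type array 2 alone they were -0.47, -0.08 and -0.43.

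Rpl22l1 had the widest gap between the wild-type arrays of any member. It read 10.18 and 12.98 on the wild-type pair, and 11.99 and 12.17 on the knockout pair. The knockout arrays thus lay between the wild-type arrays. The difference was 0.50 (SE 1.04) with wild-type array 1 and -0.90 without it.

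Rpl13a, which also takes part in silencing of inflammatory mRNAs, had 4 extended probe sets. Probe set 1417608_a_at read 13.51 and 13.05 on the wild-type pair, and 12.81 and 12.75 on the knockout pair, a difference of -0.50 (SE 0.23). Probe set 1455001_x_at differed by -0.53 (SE 0.23) and 1455485_x_at by -0.26 (SE 0.18), and the groups were separate on all 3. The fourth, 1433928_a_at, read 9.90 on wild-type array 1 while the rest lay between 11.16 and 11.33, and differed by 0.58 (SE 0.55). Without wild-type array 1 all 4 were negative, from -0.29 to -0.14.

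Rpl41, the shortest of the ribosomal proteins, differed by -0.39 (SE 0.16) on 1422623_x_at, where wild type read 13.75 and 13.60 and the knockout 13.27 and 13.30. Its other 3 probe sets gave -0.28, 0.14 and 0.25, the last 2 at levels below 5. Rpl38, known for its effect on translation of Hox mRNAs, differed by -0.28 (SE 0.20), or -0.12 without wild-type array 1. Rpl11, which with 5S RNA can bind Mdm2, read 13.72 and 13.25 on the wild-type pair, and 13.14 and 13.24 on the knockout pair, a difference of -0.29 (SE 0.23), and -0.06 without wild-type array 1. In both genes the 2 knockout arrays were the lowest.

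On the higher side of the large subunit, Rpl14 read 6.53 and 6.58 on the wild-type pair, and 6.87 and 6.99 on the knockout pair. The groups were separate, and the difference of 0.37 (SE 0.16) was 0.35 without wild-type array 1. Rpl12, part of the stalk base, read 2.48 and 4.18 on the wild-type pair, and 4.36 and 4.90 on the knockout pair, a difference of 1.30 (SE 0.67) that starts near the floor of the arrays and was 0.44 without wild-type array 1. Rpl7 differed by 0.35 (SE 0.18), 0.20 (SE 0.16) and 0.07 (SE 0.16) on its 3 probe sets, all in the same direction, and by 0.21, 0.12 and 0.11 without wild-type array 1. Rpl27 gave -0.24 and -0.13 on its _a_at and plain probe sets and 0.59 on its _x_at one, where wild-type array 1 read 11.29 and the others 12.52 to 12.66. Without that array the _x_at difference was -0.095. Rpl39, at the exit of the peptide tunnel, read 5.51 to 5.63 on all arrays and differed by -0.05 (SE 0.16).

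**Figure D4:**
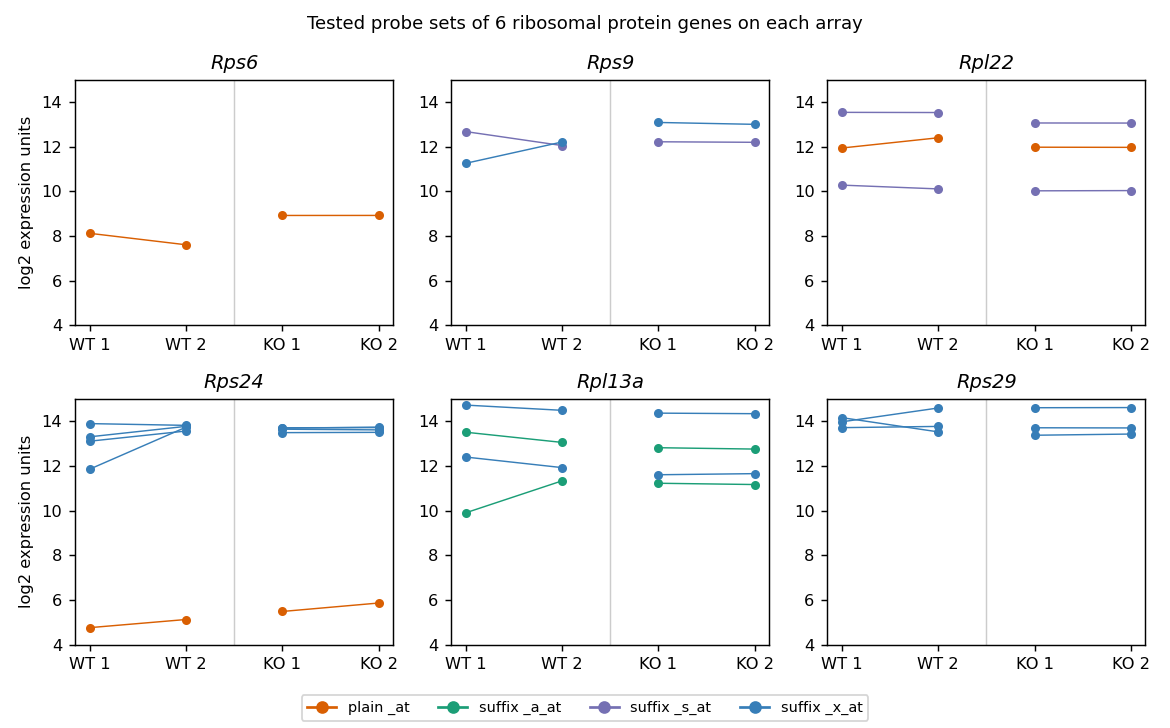
Log2 expression (vertical axis) of each tested probe set of Rps6, Rps9, Rpl22, Rps24, Rpl13a and Rps29 on the 4 arrays (horizontal axis), with lines joining the 2 arrays of a genotype and colours for the suffix. The knockout lines are nearly flat except for the plain probe set of Rps24 (5.48 and 5.86), and single probe sets of Rps24 (11.85) and Rpl13a (9.90) lie low on wild-type array 1.

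Members outside the standard ribosome showed the same mixture. Rps4l, a mouse paralog of the X-linked Rps4x, read 8.05 and 7.31 on the wild-type pair, and 8.21 and 8.39 on the knockout pair. Its groups were separate, and the difference was 0.62 (SE 0.32), or 0.99 without wild-type array 1. Rps4x itself differed by 0.01 (SE 0.18). Rps27l, a paralog of Rps27 known as a p53 target, gave -0.36, -0.15 and -0.02 on 3 probe sets, and -0.24 to -0.27 without wild-type array 1. Rpl7l1, a nucleolar relative of Rpl7, gave -0.44, 0.10 and 0.21 on 3 plain probe sets. Rps19bp1, which binds Rps19 and the deacetylase Sirt1, differed by -0.31 (SE 0.30), and by 0.01 without wild-type array 1.

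Plain and extended probe sets did not give the same picture of the genotype difference. The 20 plain ones had a median of 0.02, with 10 higher and 10 lower. The 68 extended ones had a median of -0.10, with 23 higher and 44 lower (64.7%). Over all tested probe sets the order was the other way. There the median was -0.042 for plain ones (55.4% lower) and -0.024 for extended ones (52.9% lower). The groups did not overlap in 10 of 20 plain (background 36% of all tested plain probe sets) and in 32 of 68 extended (47.1%, against 40.6%). Separate and higher were 7 plain (35%, against 16.3%) and 9 extended (13.2%, against 19.8%). Separate and lower were 3 plain (15%, against 19.6%) and 23 extended (33.8%, against 20.8%). Level went with this: the 5 plain probe sets above 10 units all read lower, with a median of -0.20, and the 15 below 10 units had a median of 0.21. Under a filter at 6 units the plain median was -0.11, and with _a_at counted as plain it was -0.10. The filter left out dim plain probe sets, and the other setting added the 27 _a_at ones, with a median level of 13.12. The sign of the plain median thus changed with the probe sets that were let in. The part of level in the difference between the kinds was not tested.

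Without wild-type array 1 the 2 kinds of member probe set differed in size. The median absolute difference of extended ones was 0.20 on all arrays and 0.11 against wild-type array 2 alone. That of plain ones was 0.32 and 0.34. Over all tested probe sets the values were 0.26 and 0.19 for extended ones and 0.23 and 0.20 for plain ones. Among the members, the 5 plain ones above 10 units gave 0.20 and 0.14, and the 15 below gave 0.37 and 0.36. Of the 11 probe sets that kept a difference of at least 0.3 without wild-type array 1, 7 were plain (Rps6, Rps4l, Rps24, Rps25, Rpl12, Rpl14 and Rps27) and 4 extended (Rps9, Rpl22, Rps14 and Rpl41). These were 7 of 20 plain and 4 of 68 extended members, beside 2099 of 11738 plain and 965 of 5490 extended ones over all tested probe sets. All 7 plain ones were among the 15 below 10 units, and 0 of the 5 above were. Those of Rps24, Rps25, Rpl12 and Rps27 read below 6 units on every array. The 11 names follow from the values and are given with no test.

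Probe sets of the same gene often disagreed. Of 20 genes with more than 1 tested probe set, 10 had differences of both signs, and 7 did without wild-type array 1. The median gap between the highest and the lowest difference of a gene was 0.34 on all arrays and 0.14 without wild-type array 1. These counts and gaps were not made for other genes, so they cannot be called particular to the members. The widest gaps were in Rps9 (1.47), Rpl13a (1.11), Rps24 (0.98) and Rpl27 (0.83), and they became 0.68, 0.16, 0.66 and 0.15. In 6 genes a plain and an extended probe set were both tested, and the mean differences had opposite signs in Rpl27 and Rpl41. In Rps15, Rpl22, Rps3 and Rps24 the signs of the means were the same. Without wild-type array 1 they differed in Rps24. There the plain probe set was at 0.55 and the 4 extended ones at -0.11 to -0.06.

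Other genes of translation were read from 5 lists. For these lists the brightest probe set stood for a gene, and over all 10110 genes 5.06% met an unadjusted p under 0.05 and the median difference was -0.05, or 0.04 without wild-type array 1. Rpsa and Fau, small-subunit genes with other symbols, differed by -0.71 (SE 0.30) and -0.31 (SE 0.27), with Rpsa lower on both knockout arrays. Without wild-type array 1 these were -0.36 and -0.0059. Of 8 tested genes of the elongation list 0 met the mark, with a median of -0.11, or 0.018 without wild-type array 1. The list holds elongation factors and also Eef2k, the kinase of Eef2, Eef1e1, of the tRNA synthetase complex, and Tpt1, the translationally controlled tumour protein. The smallest p belonged to Eef1e1 (-0.22), Eef1d (-0.26) and Tpt1 (-0.12), which were -0.24, 0.07 and -0.14 without that array. Of 32 initiation factors 0 met it, with 10 higher and 22 lower and a median of -0.08, and Eif5b at 0.38, Eif3k at -0.36 and Eif4g2 at 0.52. Without wild-type array 1 the median was 0.058, and these genes were at 0.25, -0.10 and 0.04.

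Among 44 genes of ribosome biogenesis the median was 0.00, with 22 above zero and 22 below, and 1 met the mark. Without wild-type array 1 that median was 0.14. That gene was Nolc1, a nucleolar protein, which read 7.40 and 7.33 on the wild-type pair, and 8.01 and 7.86 on the knockout pair, a difference of 0.56 (SE 0.17, limma unadjusted p = 0.0301), with 2.14% of all genes higher at this mark. Taf1b, of the factor that starts ribosomal RNA synthesis, differed by 0.65 (SE 0.23), and Ncl, nucleolin, by 0.42 (SE 0.16). Without wild-type array 1 the differences of Nolc1, Taf1b and Ncl were 0.60, 0.44 and 0.42. Groups were separate in 13 of these 44 genes, against 37.7% of all genes. Of the 13, 9 were higher and 4 lower. Over all genes 17.1% were separate and higher and 20.5% separate and lower. The median of 19 mTOR pathway genes was 0.07 with and without wild-type array 1, and 10 of them read higher and 9 lower. Only Tsc1, an inhibitor of the pathway, met the mark, at 6.45 and 6.50 on the wild-type pair, and 7.04 and 7.05 on the knockout pair, a difference of 0.58 (SE 0.16, limma unadjusted p = 0.0232). Lamtor1 and Akt1s1 had the next smallest p, at -0.39 and -0.28, or -0.22 and -0.26 without wild-type array 1, where Tsc1 was at 0.55. None of these genes passed an adjusted p of 0.05 in limma.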

How the data were processed

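The authors deposited a log2 value for every probe set. GCRMA under Bioconductor 3.14 made them, per the labels' protocols. The scale was read from the values (floor 2.30). The version of GCRMA is not given in the sources used here. Per the labels' protocols, mRNA with an RNA integrity number of 8.0 to 9.0 was labelled. Normalization between arrays assumes that most probe sets do not change together.

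No further normalization was applied. The 64 manufacturer controls were left out, and the filter (4 log2 units or more, 2 or more arrays) kept 17228 of 45037. All were fitted with limma 3.58.1 in R 4.3.3 (lmFit, eBayes, genotype only, 2 residual and 1.73 prior degrees of freedom), with Benjamini-Hochberg adjustment over them. Each SE is limma's moderated SE, and precision is limited by having 4 arrays. Gene names came from the platform annotation, and 49 of 49 member symbols were unchanged in the gene table of GRCm38.p6.

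Named genes were the 10 member genes in each direction with the smallest p, fixed housekeeping, stalk and paralog genes, the 6 with the largest plain against extended gap, and 3 per list. Further genes, named for their gaps or levels, were chosen after their values were seen. The members and lists were chosen with earlier results of these data known. The scripts were tested on simulated data with 17228 probe sets.

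Alternative settings covered dropping the filter, raising it to 6 units, quantile normalization, median centring, eBayes with trend and robust, a replicate block, leaving out each array, 1 value per gene (brightest or mean), plain probe sets only, subunits only, and _a_at as plain.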

Additional observations from a re-analysis of the deposited data

How the results depend on the processing

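Under every alternative run, 0 ribosomal protein probe sets passed an adjusted p of 0.05 in limma. At an unadjusted p under 0.05 the count was 4 of 88. It was 2 of 80 (2.5%) with a filter at 6 units, 2 of 88 (2.27%) with quantile normalization and 2 of 46 (4.35%) with probe sets averaged per gene. There 4.98%, 5.17% and 4.98% of all features met the mark. With plain probe sets only it was 2 of 20 (10%), against 5.197% of all tested plain probe sets. Without a filter it was 9 of 104 (8.65%, against 3.43%). With an array dropped it was 0 to 41, and the count of higher ones, 3, was 0 to 18. Over all probe sets 0.981% to 37.8% met the mark there. A genotype left with 1 array takes its spread from the other. The median difference of -0.09 was -0.038 without a filter, -0.047 with quantile normalization, 0.024 over plain probe sets only and -0.12 to -0.040 with an array dropped. The plain median of 0.02 was -0.11 with a filter at 6 units and -0.10 with _a_at counted as plain, and ran from -0.04 to 0.05 leaving out each array. The extended median of -0.10 ran from -0.18 to -0.052 there.

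The replicate numbers are shared by the genotypes, with only 2 pairs and no label that ties them. Deviations of same-numbered arrays correlated at 0.15 over all tested probe sets and at 0.35 over the members. With the replicate block the count at an unadjusted p under 0.05 was 5, all 5 higher, and 684 (3.97%) in place of 885 over all probe sets. Of the 62 named probe sets the sign turned in 12 without wild-type array 1, in 6 without wild-type array 2, in 4 and 1 without knockout arrays 1 and 2, in 2 with quantile normalization and in 1 with median centring.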
